A study of Mus musculus with 8 samples.

Results

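The D-type cyclins Ccnd1, Ccnd2 and Ccnd3 and the kinases they bind, Cdk4 and Cdk6, were followed across the 4 groups of a microRNA sponge experiment in mouse pre-B cells. The members were chosen by symbol: every non-control array probe whose deposited gene name was 1 of the 5 symbols. They were 5 of 34741 named genes or features and had 8 of 55681 probes. The array held 1 probe for Ccnd1, 1 for Ccnd2, 2 for Ccnd3, 3 for Cdk4 and 1 for Cdk6. Of these, 7 probes of 4 members passed the filter on dim probes and were tested among 21320 genes, and Ccnd1 did not pass.

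All 4 groups were cultures of wk3, a pre-B cell line with the genotype SLP-65-/-, transduced with a retroviral vector and selected with puromycin. SLP-65, encoded by Blnk, is the adaptor protein that carries the signal of the pre-B cell receptor. The groups were miR-15 sponge cells 36 h without IL-7, miR-15 sponge cells in excess IL-7, scrambled sponge cells 36 h without IL-7 and scrambled sponge cells in excess IL-7. A sponge is a transcript with many microRNA binding sites that draws a microRNA away from its targets. The scrambled sponge served as the control vector, so the controls carry the same SLP-65 defect and a vector as well. Each group had 2 cultures from separate experiments with independently generated clones, and each culture had 1 single-colour array. Interleukin 7 (IL-7) is the growth factor of precursor B cells, and its removal was used to start differentiation. Since 1 line was used, the results describe that line and its clones.

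D-type cyclins are made when growth factors signal, and they switch on CDK4 and CDK6. The active kinases phosphorylate the retinoblastoma protein, which frees E2F factors to transcribe cyclin E and the replication genes. In pre-B cells, cyclin D3 is known to be needed for expansion, and cyclin D2 is known as a target of IL-7 and STAT5 signalling. In human cells, transcripts of D-type cyclins, cyclin E1 and CDK6 are published targets of the miR-15 family.

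The sponge was designed against the whole miR-15 family, and the mature sequences are shown because the family is defined by the seed they share (bases 2 to 8, in capitals). The sequences are from RefSeq on GRCm38.p6, written 5′ to 3′.
mmu-miR-15a-5p: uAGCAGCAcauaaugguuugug
mmu-miR-15b-5p: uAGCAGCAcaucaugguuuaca
mmu-miR-16-5p: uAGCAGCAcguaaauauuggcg
mmu-miR-195a-5p: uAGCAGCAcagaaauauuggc
mmu-miR-497a-5p: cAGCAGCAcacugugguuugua
mmu-miR-322-5p: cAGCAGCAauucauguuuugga
All 6 carried the same 7 seed letters and differed in base 1 and in the bases after the seed. Of 1738 mature microRNA entries of the mouse, 11 had these letters at bases 2 to 8. The 6 names shown are therefore not all that share the seed. The complement of that seed, TGCTGCT, was in the sequence of 0 of the 8 member probes and in 0.819% of the 55681 probes on the array. The letters TGCTGC alone were in 1 of the 8, a Ccnd3 probe, and in 2.07% of all probes. A probe covers 60 bases of a transcript, so these counts say nothing of sites elsewhere in the transcript.

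The arrays were alike in quality, with 50.6% to 56.6% of spots well above background and 0 saturated spots on each. Replicate arrays of a group correlated at 0.990 to 0.997 over the tested genes. The scrambled cultures with IL-7 were farthest apart, with 1168 genes over 1 log2 unit apart, against 193 to 519 in the other 3 groups. All 8 pre-B cell markers, among them Cd79a and Pax5, were well above background on every array. Of the 8 myeloid markers, 4 or 5 were also above background on both arrays of each group, and 2 or 3 on neither. Their summed level was 17.9 to 18.5 in sponge cells without IL-7, 14.0 to 18.2 in sponge cells with IL-7, 27.2 to 27.6 in scrambled cells without IL-7 and 16.1 to 21.5 in scrambled cells with IL-7 (multiples of the array's 75th percentile). The T cell list had 2 of 6 markers on the array above background, the NK cell list 3 of 5, the fibroblast list 1 of 5 and the erythroid list at most 2 of 4. Most of each myeloid sum was from Itgam, at log2 levels of 3.58 to 4.71 over the arrays. The summed level of the pre-B cell markers was 1242 to 1546. The part of the myeloid markers in the results was not tested. Blnk was bright on all arrays, at log2 levels of 7.16 to 8.24. The labels do not say which part of the gene is disrupted, so its probe does not check the genotype.

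Levels are log2 values of the processed signal relative to the 75th percentile of that array, so 0 is a signal equal to that percentile. They compare a gene between groups, not a gene with another gene. A fall in such a level cannot tell fewer cells that make the transcript from less transcript per cell. Differences are log2 differences ± SE from limma's moderated test over all 8 arrays, and a gene was called at a Benjamini-Hochberg adjusted p under 0.05 over the 21320 genes.

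Of the 4 tested members, 3 were called lower on IL-7 withdrawal in sponge cells, as were 15.2% of all genes. All 4 were called lower in scrambled cells, as were 27.4% of all genes. Without IL-7, Ccnd3 and Cdk4 were called higher in sponge cells than in scrambled cells, as were 16.8% of all genes. Ccnd2 was called lower there, as were 15.3%. The calls of Cdk4 and Cdk6 on withdrawal in sponge cells, and that of Ccnd2 without IL-7, were lost when some single arrays were left out. The plot of levels gives each member on all 8 arrays.

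**Figure D1:**
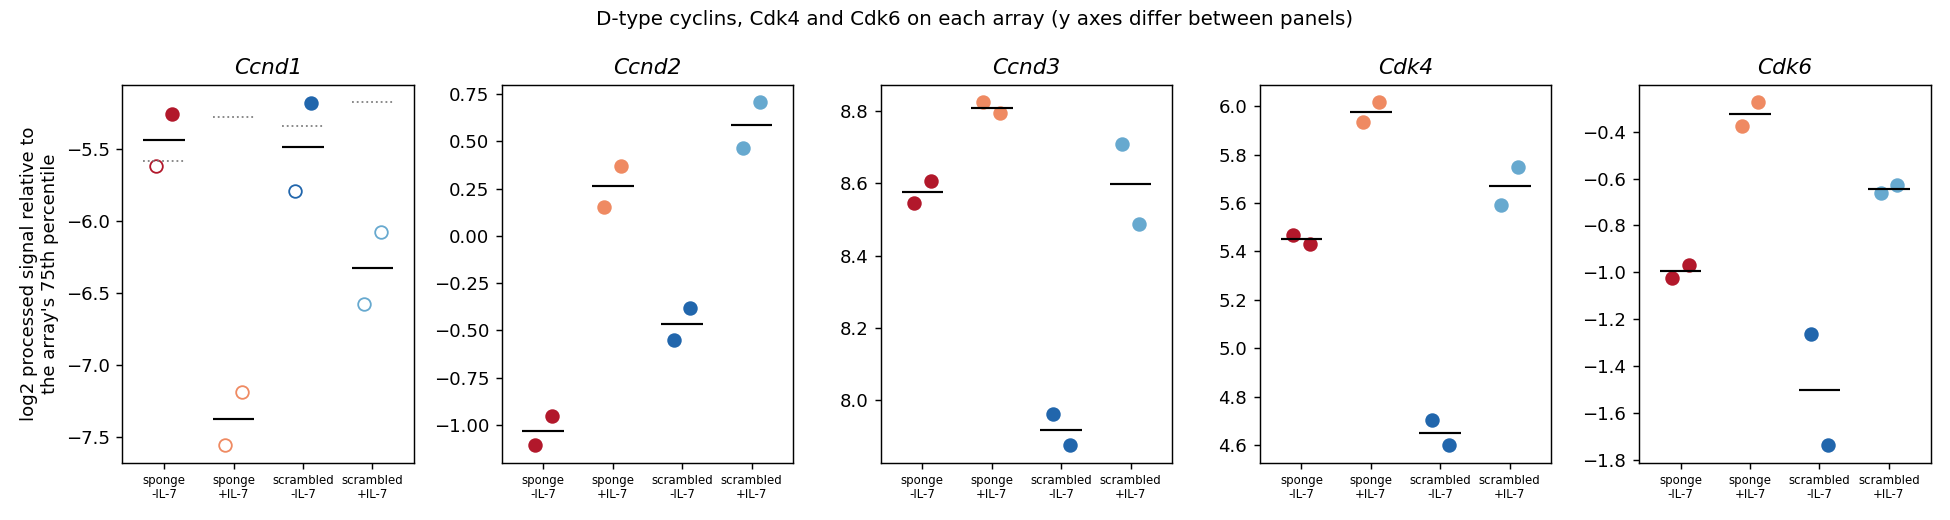
Log2 processed signal relative to the array's 75th percentile (y axis, a different range in each panel) for the 5 members in sponge and scrambled cells without (-) and with (+) IL-7; each point is an array, filled where the probe was well above background, and bars are group means (n = 2). Dotted lines in the Ccnd1 panel are the group means of the lowest level well above background. The panels show Ccnd2 lowest in sponge cells without IL-7, while Ccnd3, Cdk4 and Cdk6 are lowest in scrambled cells without IL-7.

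Ccnd1, cyclin D1, was at the edge of detection throughout. Its processed signal was 8.20 and 10.7 in sponge cells without IL-7, 1.94 and 2.47 in sponge cells with IL-7, 6.28 and 10.2 in scrambled cells without IL-7, and 3.12 and 5.60 in scrambled cells with IL-7. The probe was well above background on 1 of 2 arrays in each group without IL-7 and on 0 of 2 in each group with IL-7. All 8 signals were far below the 75th percentile of their array, which was 297 to 410. Because no group had the probe above background on both arrays, no fold change is given.

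Ccnd2, cyclin D2, had the strongest fall of the members in sponge cells. Its level was -1.11 and -0.95 in sponge cells without IL-7, against 0.15 and 0.37 in sponge cells with IL-7. In scrambled cells the level was -0.55 and -0.38 without IL-7, against 0.47 and 0.71 with IL-7. Both arrays without IL-7 were below both arrays with IL-7 for either construct, and the sponge arrays were below the scrambled arrays of the same IL-7 state. Withdrawal changed Ccnd2 by -1.29 ± 0.13 in sponge cells, which is 2.45-fold lower (adjusted p = 0.00364, limma). Only 0.521% of the tested genes had a more negative difference in that comparison. In scrambled cells withdrawal changed it by -1.05 ± 0.13, or 2.08-fold lower (adjusted p = 0.0016, limma), and 6.99% of genes lay below it.

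The Ccnd2 values rest on a single probe, whose sequence is shown so that the transcript it reads can be checked. The deposited annotation places it at base 609 of the Ccnd2 transcript and at chr6:127098696-127098755 on mm9, minus strand.
Ccnd2 probe: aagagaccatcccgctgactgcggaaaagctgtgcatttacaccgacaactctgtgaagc
No transcript annotation for mm9 was used here, so the exon is not given.

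Ccnd3, cyclin D3, was bright on every array. Its level was 8.55 and 8.61 in sponge cells without IL-7, against 8.83 and 8.79 in sponge cells with IL-7. In scrambled cells the level was 7.96 and 7.87 without IL-7, against 8.71 and 8.49 with IL-7. The scrambled arrays without IL-7 stood below all others, and the range of the sponge arrays without IL-7 lay within that of the scrambled arrays with IL-7. Withdrawal changed Ccnd3 by -0.68 ± 0.10 in scrambled cells, or 1.60-fold lower (adjusted p = 0.00238, limma). It was still called, at -0.36, after quantile normalization and in the deposited table. In sponge cells the difference was -0.23 ± 0.10 and was not called (adjusted p = 0.138, limma), with a 95% interval of -0.47 to 0.0018. That value was 0.12 after quantile normalization, so the direction in sponge cells is not settled by these arrays.

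Cdk4, a catalytic partner of the D cyclins, had levels of 5.47 and 5.43 in sponge cells without IL-7, against 5.93 and 6.02 in sponge cells with IL-7. In scrambled cells its level was 4.71 and 4.60 without IL-7, against 5.59 and 5.75 with IL-7. No array of a group reached the range of another group. Withdrawal changed Cdk4 by -0.52 ± 0.09 in sponge cells (1.44-fold lower, adjusted p = 0.0113, limma) and by -1.02 ± 0.09 in scrambled cells (2.03-fold lower, adjusted p = 0.000497, limma). After quantile normalization the difference in sponge cells was -0.22 and was no longer called (adjusted p = 0.112, limma). It was also not called without sponge replicate 2 with IL-7, or without either sponge replicate without IL-7, where it was -0.48, -0.54 and -0.51.

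Cdk6, the other catalytic partner, was much like Cdk4 in the order of its groups. Its level was -1.02 and -0.97 in sponge cells without IL-7, against -0.37 and -0.27 in sponge cells with IL-7. In scrambled cells the level was -1.26 and -1.74 without IL-7, against -0.66 and -0.63 with IL-7. The groups did not overlap, and the scrambled pair without IL-7 was the most spread. Withdrawal changed Cdk6 by -0.67 ± 0.16 in sponge cells (1.59-fold lower, adjusted p = 0.031, limma) and by -0.86 ± 0.16 in scrambled cells (1.81-fold lower, adjusted p = 0.00639, limma). The call in sponge cells was lost when any of the 4 sponge arrays was left out, with differences of -0.72 to -0.62.

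Counted over the members, 3 of 4 were called lower on withdrawal in sponge cells, where 15.2% of all genes tested were called lower. In scrambled cells 4 of 4 were called lower, where 27.4% of all genes tested were. The median difference of the 4 was -0.60 in sponge cells, against -0.064 over all genes, and -0.94 in scrambled cells, against -0.024 over all genes. The number of genes called in sponge cells was 4939, and between 1738 and 5141 with 1 array left out. In scrambled cells it was 10251, and between 6770 and 10356 with 1 array left out.

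**Figure D2:**
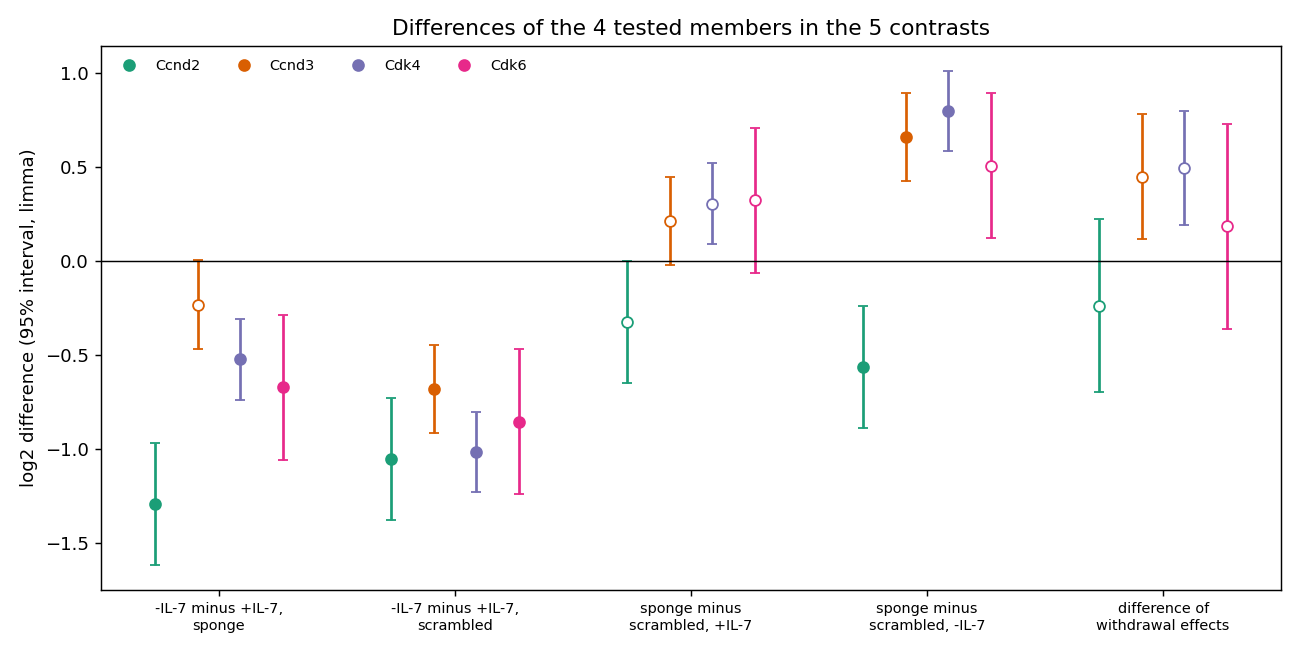
Log2 difference (y axis) of the 4 tested members in the 5 contrasts (x axis), with 95% intervals from limma; filled points have an adjusted p under 0.05. Ccnd2 is below 0 in all 5, and the other 3 members are above 0 in both sponge minus scrambled contrasts.

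The sponge effect compares sponge with scrambled cells at a fixed IL-7 state. The activity of the miR-15 family itself was not measured here. With IL-7, none of the 4 tested members was called by limma, and 2 of the 4 had an unadjusted p under 0.05, as did 19.5% of all genes. In this comparison 1.13% of all genes were called in either direction. The differences were -0.33 for Ccnd2 (95% interval -0.65 to -0.0002), 0.21 for Ccnd3 (-0.024 to 0.45), 0.30 for Cdk4 (0.09 to 0.52) and 0.32 for Cdk6 (-0.064 to 0.71). Single arrays moved the smaller ones: Ccnd3 was 0.10 without scrambled replicate 2 with IL-7 and 0.32 without replicate 1, and Ccnd2 was -0.21 without that replicate 2 and -0.22 without sponge replicate 1 with IL-7. The sponge arrays lay above the scrambled arrays without overlap for Ccnd3, Cdk4 and Cdk6, as they did for 27.3% of genes, and below them for Ccnd2, as they did for 23.3%. The intervals of Ccnd2 and Cdk6 reach past the differences measured without IL-7, and those of Ccnd3 and Cdk4 end short of them. This leaves out the error of the differences without IL-7, so it does not show that the sponge effect depends on IL-7. The test of that is the difference between the withdrawal effects, given below, which was called for none of the members.

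Without IL-7, Ccnd3 was higher in sponge cells by 0.66 ± 0.10, or 1.58-fold (adjusted p = 0.00459, limma). Cdk4 was higher by 0.80 ± 0.09, or 1.74-fold (adjusted p = 0.00192, limma). Cdk6 had a difference of 0.51 ± 0.16 with a 95% interval of 0.12 to 0.89 and was not called (adjusted p = 0.0559, limma). It was called after quantile normalization, at 0.58, and without scrambled replicate 1 without IL-7, at 0.74, and was 0.27 without scrambled replicate 2 without IL-7. Ccnd2 differed by -0.57 ± 0.13, or 1.48-fold lower in sponge cells (adjusted p = 0.0231, limma), and this call was lost when any of the 4 arrays without IL-7 was left out, with differences of -0.65 to -0.48. Thus 2 of 4 members were called higher, where 16.8% of genes were, and 1 of 4 was called lower, where 15.3% of genes were. The number of genes called was 6843, and between 3416 and 7447 with 1 array left out.

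The difference between the withdrawal effects (sponge minus scrambled) was called for 0 of the 4 members by limma, and 2 of the 4 had an unadjusted p under 0.05, as did 23.2% of all genes. Over all genes 5.27% were called. The difference was 0.45 ± 0.13 for Ccnd3 (adjusted p = 0.121, limma) and 0.49 ± 0.12 for Cdk4 (adjusted p = 0.0807, limma). It was -0.24 ± 0.19 for Ccnd2 and 0.18 ± 0.22 for Cdk6. In this fit the withdrawal effects of the members are therefore not shown to differ between the constructs. For Cdk4 that depends on the processing. Its difference was called with the normexp background correction, at 0.70, and with the mean over probes. It was also called for another of its probes, at 0.72 (adjusted p = 0.036, limma). The comparisons of withdrawal and of sponge share arrays, so their values are not independent of each other.

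Ccnd2 and Ccnd3 were also set against each other within each array, which removes the scaling of the array. The log2 ratio of Ccnd2 to Ccnd3, relative to its mean in scrambled cells with IL-7, was -1.64 and -1.55 in sponge cells without IL-7 and -0.66 and -0.41 in sponge cells with IL-7. It was -0.50 and -0.24 in scrambled cells without IL-7 and -0.23 and 0.23 in scrambled cells with IL-7. The sponge arrays were below the scrambled arrays of the same IL-7 state, and those without IL-7 stood far below all others. Averaged over both IL-7 states, the sponge minus scrambled difference of this ratio was -0.88. It was -0.997 for Ccnd2 to Cdk4 and -0.86 for Ccnd2 to Cdk6. Each of these 3 pairs gave a two-sided exact permutation p of 0.0556, the smallest that the 36 permutations within IL-7 state allow, and 0.111 after adjustment over the 6 pairs. The levels seen before had fixed this value: in sponge cells Ccnd2 was lower and the other members higher, without overlap. The 3 pairs also share the Ccnd2 values, so the permutation test adds nothing to those levels. Among Ccnd3, Cdk4 and Cdk6 the ratios differed by -0.12 to 0.14, with exact permutation p of 0.278 to 0.833. This comparison was chosen after the levels had been seen.

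**Figure D3:**
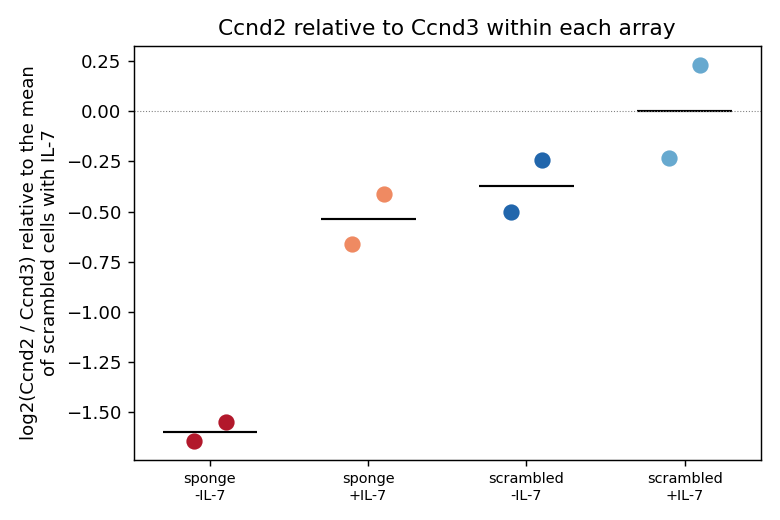
Log2 ratio of Ccnd2 to Ccnd3 on each array (y axis), relative to its mean in scrambled cells with IL-7, in the 4 groups; points are arrays and bars are group means (n = 2). The sponge arrays without IL-7 lie at -1.64 and -1.55, below the other 6.

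By means of 2 arrays, the order of the 4 group levels had 2 forms. Ccnd2 was lowest in sponge cells without IL-7, next in scrambled cells without IL-7, then in sponge cells with IL-7 and highest in scrambled cells with IL-7. Cdk4 and Cdk6 were highest in sponge cells with IL-7 and lowest in scrambled cells without IL-7, with the other groups between. Ccnd3 was also lowest in scrambled cells without IL-7. Its order among the other 3 groups is not settled, since the arrays of sponge cells without IL-7 and of scrambled cells with IL-7 overlapped and the difference between the sponge groups turned with quantile normalization. The steps between sponge and scrambled cells with IL-7 were called for no member, and that of Cdk6 without IL-7 was not called. Steps between groups that differ in both construct and IL-7 state were not tested.

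The probes of a gene can be compared where there are several. The 3 Cdk4 probes, placed by the deposited annotation at bases 861, 1181 and 1286 of its transcript, gave withdrawal differences of -0.54 to -0.49 in sponge cells and -1.21 to -1.02 in scrambled cells. Their sponge effect without IL-7 was 0.80 to 0.91, and each was called in all 3 comparisons. The difference between withdrawal effects was called for the probe at base 1181, at 0.72 (adjusted p = 0.036 over 30963 probes, limma), and was not called for the others, at 0.49 and 0.59. A further probe, which the annotation names by a Cdk4 transcript identifier and not by the symbol, gave -0.59, -1.04 and 0.78 in the same 3 comparisons. It lies at chr10:126504286-126504342 (mm9) and overlaps most of the probe at base 1286 (126504279-126504338). It is therefore not a separate reading of the transcript.

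The 2 Ccnd3 probes agreed in direction but not in size. The brighter one gave the values above, and the other gave a sponge effect without IL-7 of 1.12 (adjusted p = 0.0016, limma), against 0.66 for the brighter one. With IL-7 the other probe gave 0.55 (adjusted p = 0.0825, limma), against 0.21. Its withdrawal effect was -0.30 in sponge cells and -0.88 in scrambled cells. The 2 probes lie 312 bases apart on chromosome 17 (mm9), and which of them reads the gene's level better was not tested.

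**Figure D4:**
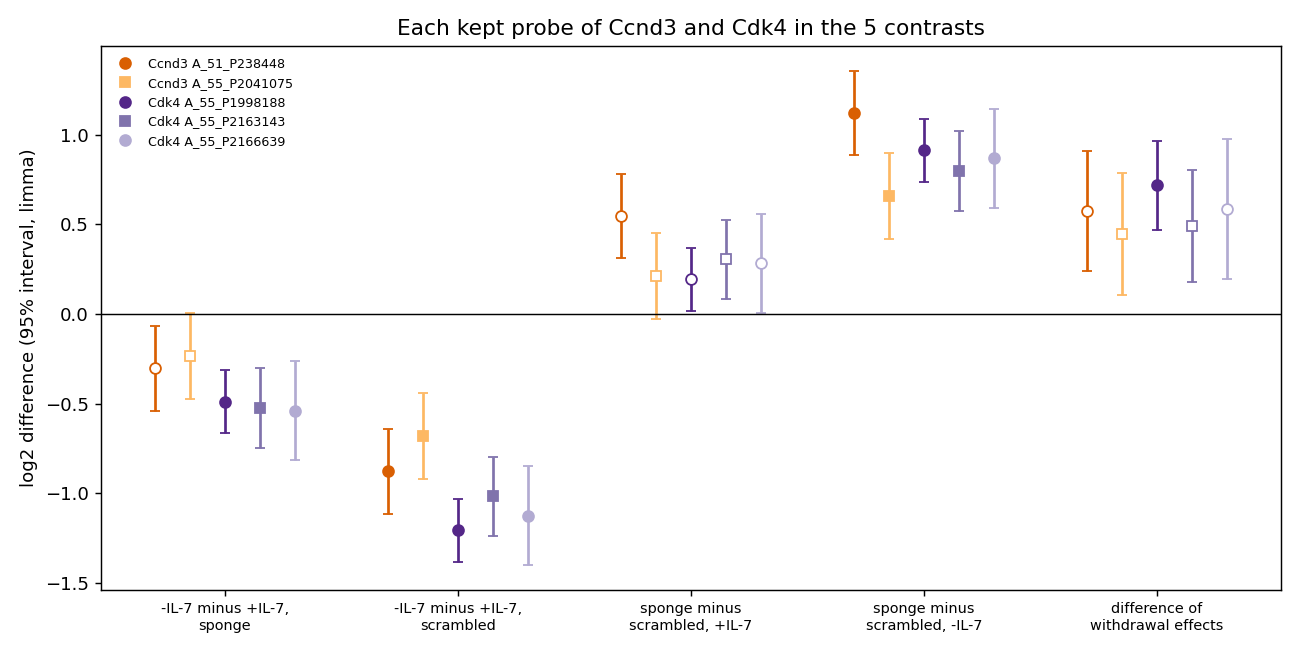
Log2 difference (y axis, 95% intervals from limma over all kept probes) of each probe of Ccnd3 and Cdk4 in the 5 contrasts; squares are the probes that represent the gene, and filled symbols have an adjusted p under 0.05. The Ccnd3 probes read 1.12 and 0.66 for sponge minus scrambled without IL-7.

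The regions before a RefSeq start of Cdk4 and of Cdk6 are shown because both hold CACGTG, the E-box letters that MYC and its relatives can bind. Each is the 250 bases before a RefSeq start on GRCm38.p6, plus strand, and capitals mark the motifs found: CACGTG, and in Cdk6 also a TTTNNCGC match on the plus strand, a loose form of the E2F site.
Cdk4, chr10:127063285-127063534: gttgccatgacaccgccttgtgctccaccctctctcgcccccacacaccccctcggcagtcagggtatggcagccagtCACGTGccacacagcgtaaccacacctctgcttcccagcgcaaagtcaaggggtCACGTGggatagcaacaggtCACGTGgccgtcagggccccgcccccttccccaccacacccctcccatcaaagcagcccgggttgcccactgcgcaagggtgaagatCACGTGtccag
Cdk6, chr5:3343643-3343892: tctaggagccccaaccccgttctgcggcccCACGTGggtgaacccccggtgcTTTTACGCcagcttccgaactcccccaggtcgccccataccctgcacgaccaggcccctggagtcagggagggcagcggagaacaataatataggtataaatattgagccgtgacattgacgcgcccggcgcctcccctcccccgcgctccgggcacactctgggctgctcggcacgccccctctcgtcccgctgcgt
Cdk4 had 4 E-boxes and Cdk6 had 1. Ccnd3, which was also lowest in scrambled cells without IL-7, had 0 at each of its 2 starts. Over the table's 32851 windows of 300 bases, 7.15% held at least 1 CACGTG, and 8 windows held 4 or more. TTTNNCGC was in 5.17% of windows. Ccnd3 had 2 starts in the table, and the upstream one had 1 TGTTTAC, the letters that FOXO factors can bind, which 3.65% of windows hold. TTCNNNGAA, the letters of the STAT site, was in none of the 4 member windows and in 8.30% of all windows. All motifs were searched on both strands, and none of the matches found overlapped another motif. A match is a description of letters and does not show binding. Promoters of Ccnd1 and Ccnd2 were not in the table. The Cdk6 window lies inside the gene as annotated, chr5:3341004-3531008, and the bases before that first position were not searched.

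Myc, which encodes a factor that can bind CACGTG, fell on withdrawal with either construct. Its level was -2.02 and -1.93 in sponge cells without IL-7, against -0.46 and -0.35 in sponge cells with IL-7. In scrambled cells it was -2.96 and -3.07 without IL-7, against -0.38 and -0.29 with IL-7. Withdrawal changed Myc by -1.57 ± 0.09 in sponge cells (adjusted p = 0.00159, limma) and by -2.67 ± 0.09 in scrambled cells (adjusted p = 0.000234, limma). The sponge effect was 1.04 ± 0.09 without IL-7 (adjusted p = 0.00129, limma) and -0.065 ± 0.085 with IL-7 (adjusted p = 0.689, limma). With the normexp background correction the withdrawal effect in scrambled cells was -1.70 and the sponge effect without IL-7 was 0.47, and both were still called. A link between Myc and the levels of Cdk4 and Cdk6 was not tested. Foxo1, a factor active when growth signals fall, rose by 0.71 in sponge cells and 0.81 in scrambled cells on withdrawal, and was lower in sponge cells than in scrambled cells without IL-7, at -0.47. That last call was lost in 7 of 16 alternatives, among them leaving out any of the 4 arrays without IL-7 or either sponge array with IL-7. The rise in sponge cells was not called in 3 of 16, without either sponge array without IL-7 or without sponge replicate 2 with IL-7.

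The signalling list around these factors (11 genes, Il7r, the JAKs, STAT5, FOXO and others) had genes called in both directions. Over all 21320 genes, 1689 were called higher and 3250 lower on withdrawal in sponge cells. In scrambled cells these were 4414 and 5837, and for sponge against scrambled without IL-7 they were 3572 and 3271. Counts of this list and of those that follow stand against these. On withdrawal 1 rose and 1 fell in sponge cells, and 3 rose and 2 fell in scrambled cells, where Il2rg, a subunit of the IL-7 receptor, rose by 0.51 and Jak3, the kinase bound to it, changed by -0.35. The call held in 10 of 16 alternatives for Il2rg and in 5 of 16 for Jak3. After quantile normalization 4 rose in sponge cells and 6 in scrambled cells, while without scrambled replicate 2 without IL-7 only 1 rose in scrambled cells, and none rose in sponge cells without either sponge array without IL-7 or sponge replicate 2 with IL-7. Without IL-7, 1 was higher in sponge cells and 2 were lower, among them Foxo1. That count of 2 was 5 after quantile normalization and 0 without any 1 of the 4 arrays without IL-7. The median difference of the list was 0.10, 0.23 and -0.15 in these comparisons, against -0.064, -0.024 and -0.048 over all genes.

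The list of inhibitors of the cyclin D kinases holds genes with products that can block the complexes that the members form. Of 6 tested, 1 fell in sponge cells on withdrawal, Cdkn2a, the locus of p16INK4a and p19ARF, at -0.87. In scrambled cells 4 fell, led by Cdkn1a (p21) at -1.83 and Cdkn2a at -1.65, and Cdkn1b (p27) rose by 0.39. Without IL-7, 4 were higher in sponge cells than in scrambled cells, led by Cdkn1a at 1.83 and Cdkn2c (p18INK4c) at 1.35, and Cdkn1b was lower at -0.37. Over all genes, 15.2% fell in sponge cells and 27.4% in scrambled cells on withdrawal. Without IL-7, 16.8% were higher in sponge cells and 15.3% lower. The call for Cdkn1b was lost in scrambled cells without replicate 2 without IL-7, and for sponge against scrambled without any 1 of the 4 arrays without IL-7 and without the filter. With the mean over probes, Cdkn1a was -1.11 in scrambled cells and 1.16 for sponge against scrambled, both still called. Cdkn2b was not above background in any group on both arrays and was not tested. The call for Cdkn2c in the difference between withdrawal effects, at 1.12, was lost with the normexp background correction.

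Of the 3 pocket proteins, the substrates of the cyclin D kinases, Rbl1 (p107) changed most. Its level was 4.36 and 4.20 in sponge cells without IL-7, against 4.55 and 4.74 in sponge cells with IL-7, and 2.71 and 2.31 in scrambled cells without IL-7, against 4.31 and 4.34 in scrambled cells with IL-7. It fell by 1.82 in scrambled cells on withdrawal, the only pocket protein called there, where 27.4% of all genes were called lower. Without IL-7, Rbl1 at 1.78 and Rbl2 (p130) at 0.44 were higher in sponge cells, as were 16.8% of all genes. The call for Rbl2 held in 9 of 16 alternatives and was lost without any 1 of the 6 arrays other than those of scrambled cells with IL-7. Rb1, the retinoblastoma gene itself, was called in none of the 5 comparisons, with differences of -0.16 to 0.025, but was called lower in sponge cells without IL-7 after quantile normalization and in the deposited table.

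The E2F and DP factors act next. In sponge cells, where 15.2% of all genes were called lower, 3 of 10 fell on withdrawal, among them E2f3 at -0.77 and E2f1 at -0.71. That count was 5 without either scrambled array without IL-7, and 1 without the filter, without sponge replicate 2 with IL-7 and without either sponge array without IL-7. The call for E2f3 held in all 16 alternatives and that for E2f1 in 11. In scrambled cells 8 of 10 fell, led by E2f7 at -2.27 and E2f1 at -2.15, and Tfdp2, a partner of E2F, rose by 0.39, a call that held in 11 of 16 alternatives and was lost without either scrambled array without IL-7 or without scrambled replicate 2 with IL-7. Without IL-7, 8 were higher in sponge cells, led by E2f8 at 2.15 and E2f1 at 2.06, and 2 were lower, Tfdp2 at -0.63 and E2f5 at -0.61. Over all genes, 27.4% fell in scrambled cells, and without IL-7 16.8% were higher and 15.3% lower in sponge cells. Of the 60 genes in the 7 lists, 1 was called for sponge minus scrambled with IL-7, E2f5 at -0.57 (adjusted p = 0.0387, limma), and 17 of the 60 had an unadjusted p under 0.05, against 19.5% of all genes. That call held in 6 of 16 alternatives, and leaving out any array but scrambled replicate 2 with IL-7 ended it. With the normexp background correction 2 E2F genes, 3 replication genes and Usp2 were called higher there.

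Of 7 tested genes of the following step (cyclins E and A, Cdk2, its activating kinase and Cdc25a), Ccne1, cyclin E1, had the strongest values. Its level was 4.15 and 4.06 in sponge cells without IL-7, against 4.82 and 4.96 in sponge cells with IL-7, and 1.38 and 0.38 in scrambled cells without IL-7, against 4.30 and 4.20 in scrambled cells with IL-7. The scrambled arrays without IL-7 stood far below the other 6. Withdrawal changed it by -3.37 ± 0.30 in scrambled cells (adjusted p = 0.000574, limma) and by -0.79 ± 0.30 in sponge cells (adjusted p = 0.121, limma). The effect in sponge cells was called in 3 of 16 alternatives, with only the arrays compared or without either scrambled array without IL-7. In scrambled cells 4 of 7 fell, where 27.4% of all genes did. Without IL-7, 4 of 7 were higher in sponge cells, among them Cdk2 at 1.45, where 16.8% of all genes were. In sponge cells 1 of 7 fell on withdrawal, where 15.2% of all genes did. It was Cdc25a, the phosphatase that activates Cdk2, at -0.54, a call lost without sponge replicate 2 in either IL-7 state. Ccne2 was not tested.

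The replication genes, which RB and E2F regulate, moved most uniformly. All 13 fell in scrambled cells on withdrawal, with a median of -2.25, led by Cdc6, a replication licensing factor, at -3.05 and Mcm6, a helicase subunit, at -2.87. All 13 were higher in sponge cells than in scrambled cells without IL-7, with a median of 1.87, and the same counts held under every alternative run. Over all genes, 27.4% fell in scrambled cells and 16.8% were higher in sponge cells without IL-7. In sponge cells, where 15.2% of all genes fell, 9 of 13 fell, with a median of -0.79. That count was 3 after quantile normalization, 5 without the filter, and 4 and 2 without sponge replicates 1 and 2 with IL-7, and 3 and 2 without sponge replicates 1 and 2 without IL-7.

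The list of cyclin D turnover and CDK4 folding had no common direction. Hsp90ab1 and Hsp90aa1, chaperones that fold CDK4 with Cdc37, fell by 0.81 and 0.57 in sponge cells on withdrawal, and the call for Hsp90aa1 held in 10 of 16 alternatives. In the deposited table they were -0.39 and -0.25. In scrambled cells 3 of 10 rose and 4 fell, with Fbxo31, an F-box protein that targets cyclin D1, at 0.63, Fbxo4, another F-box protein, at 0.57, Hsp90aa1 at -1.21 and Usp2, a deubiquitinase of cyclin D1, at -1.03. The call for Usp2 there was lost with normexp, at -0.26, with only the arrays compared and without scrambled replicate 2 without IL-7, and that for Fbxo31 held in 9 of 16 alternatives. The count of 3 rising was 1 without either scrambled array without IL-7. Without IL-7, Usp2 was higher in sponge cells at 2.36 (0.72 with normexp) and Hsp90aa1 at 0.97, while Fbxo4 was lower at -0.42. In scrambled cells without IL-7, Usp2 was near the floor, at -4.81 and -5.23. The lowest levels well above background on those arrays were -5.20 and -5.48. With IL-7 it was well above background on 1 of 2 scrambled arrays. The median difference of the list was 0.037 and -0.002 for withdrawal in sponge and scrambled cells, and 0.023 for sponge minus scrambled without IL-7. Of all 21320 genes, 4414 rose and 5837 fell in scrambled cells, so the list's counts there are given only as a description.

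**Figure D5:**
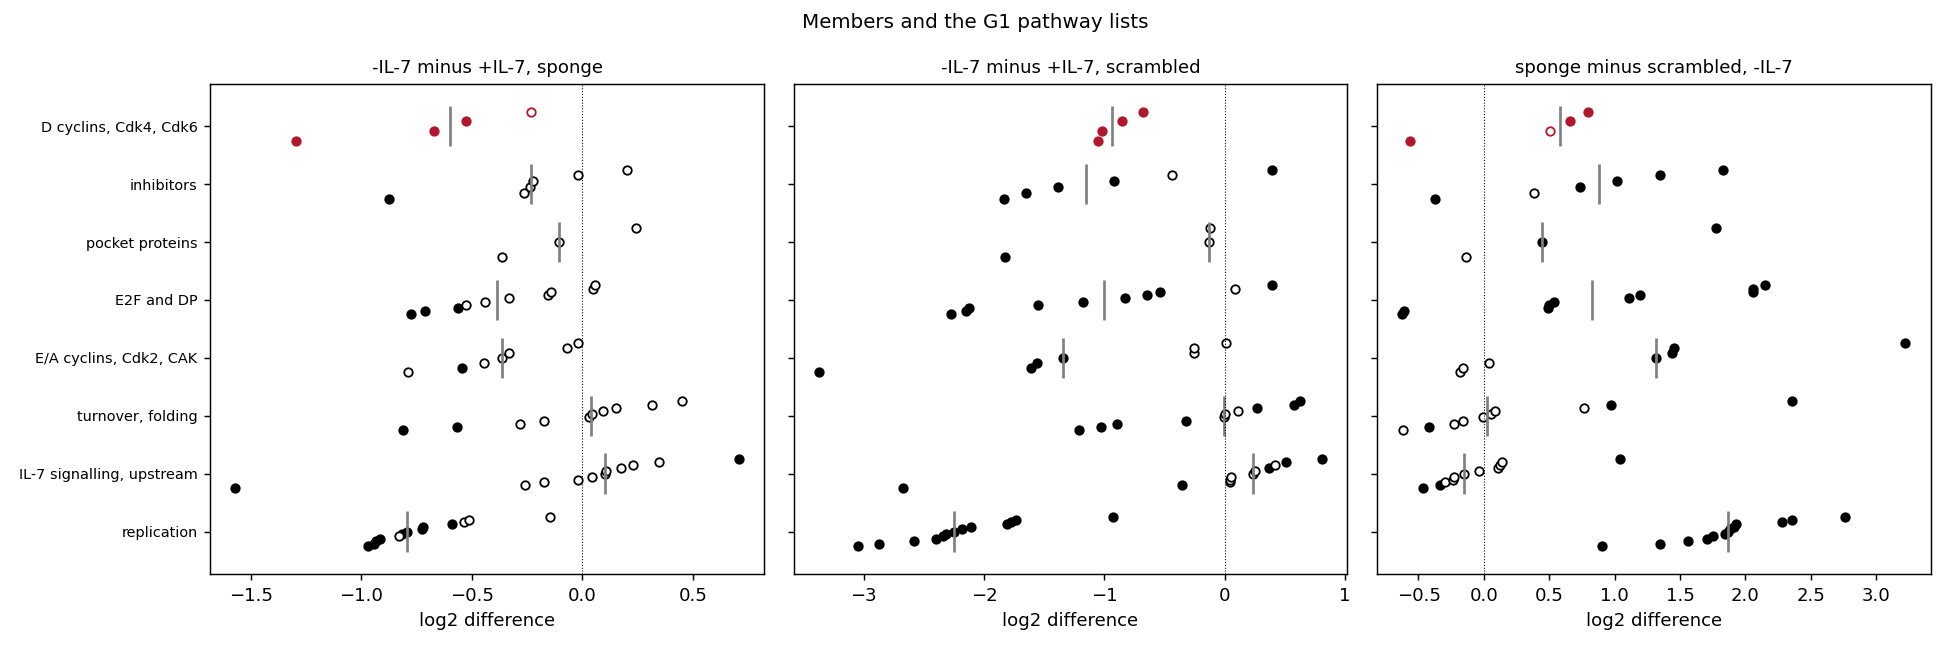
Log2 difference (x axis) of the members (red) and of each tested gene of the 7 pathway lists (black) for withdrawal in sponge cells, withdrawal in scrambled cells, and sponge minus scrambled without IL-7; filled points have an adjusted p under 0.05 and grey lines are medians. The replication genes lie at a median of -0.79, -2.25 and 1.87, beyond the members' medians of -0.60, -0.94 and 0.58.

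The genes whose values followed each member most closely over the 8 arrays were listed as a description. They were drawn from the tested genes with an SD of at least 0.5 log2 units, 2681 or 2682 per member, and the arrays and the scaling are shared by all points. For Ccnd2 they were Rpl12 (r = 0.981), Gm16519 (0.979) and Anxa9 (0.963). For Ccnd3 they were Actn4, Pold3 and Ssrp1 (each 0.992). For Cdk4 they were Mrpl42 (0.999), Ccdc167 (0.998) and Tsen34 (0.998). For Cdk6 they were Vldlr (0.983), Ppargc1b (0.981) and Enpp6 (0.976). Rpl12, a ribosomal protein gene, had levels of 6.91 and 6.88 in sponge cells without IL-7, 8.04 and 8.07 in sponge cells with IL-7, 7.28 and 7.45 in scrambled cells without IL-7, and 8.11 and 8.12 in scrambled cells with IL-7. Like Ccnd2, it was lowest in sponge cells without IL-7.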

How the data were processed

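The deposited scanner tables hold, per the file headers, a processed intensity on a linear scale, background-subtracted and detrended within each array. The deposited value table holds intensity with the same distribution on every array. The scans were read with Feature Extraction (Agilent), 10.7.1.1 per the submitters' processing notes and 10.7.3.1 per the file headers. All 8 arrays lay on 1 slide, read in 1 scan. IL-7 state followed slide column and construct followed slide row, so position cannot be told apart from either.

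From these, log2 levels were computed as the log2 processed signal minus that of the array's 75th percentile, without control and flagged spots, averaged per probe. Probes stayed in if the deposited flag put both arrays of some group above background (30963 of 55681), and the brightest kept probe represented a gene. Precision is limited by 2 arrays per group. Probes were named from the deposited annotation and a symbol table (27235 by accession, 3581 by symbol, 565 by synonym, 24300 unmatched and kept under the deposited name).

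The 4 group means were fitted with limma 3.58.1 in R 4.3.3 (two-sided, Benjamini-Hochberg over 21320 genes), and the code was tested on simulated data. Replicate numbers mark the experiment in the study's design text. Deviations of same-numbered arrays correlated at 0.0178 to 0.131. With the replicate as a block, no member's call changed, while the genes called were 151 against 241 for the sponge effect with IL-7, and 0 against 1124 for the difference between withdrawal effects. P-values measure the spread between these clones.

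Named genes were the members, up to 2 called genes per list and direction with the largest differences, Ccne1, Myc and Blnk, and the 3 genes most alike each member. The members and lists were chosen with earlier results of these data known. Alternatives tried were the replicate block, quantile normalization, normexp background correction (offset 50), the deposited table, no filter, flagged spots kept, the mean over probes, only the arrays compared, and each array left out.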

Additional observations from a re-analysis of the deposited data

Results flagged for a closer look

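For 10 named genes of the pathway lists the withdrawal effect differed between sponge and scrambled cells by limma's test of the difference itself, and in each the difference was positive. The values are log2 differences (sponge minus scrambled). Ccne1, cyclin E1, had the largest at 2.58, followed by the replication genes Cdc6 at 2.22 and Mcm6 at 1.91. The repressive E2F factors E2f7 and E2f8 had 1.75 and 1.68. Cdkn1a, an inhibitor of cyclin-dependent kinases, had 1.61, and Cdkn2c had 1.12. Rbl1, a pocket protein, had 1.46, Ccna2, cyclin A2, had 1.28, and Myc had 1.10. None of the members is among them. With the replicate as a block, limma called 0 genes in this comparison, against 1124 without it, and 5105 genes had an unadjusted p under 0.05. The lists of 7 roles had 24 of 60 genes called, all positive, where 5.27% of all genes were called in either direction. Ccne1 and Myc were each called in 8 of 16 settings, with differences of 2.09 to 3.08 and 0.48 to 1.17.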

How the results depend on the processing

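The direction of Ccnd2 in both withdrawal comparisons and of Ccnd3 and Cdk4 without IL-7, and their calls, held in every alternative run. The withdrawal effect of Ccnd3 in sponge cells turned to 0.12 with quantile normalization and with the deposited table (0.12), and that of Cdk4 was not called there, at -0.22 and -0.23. The number of genes called higher and lower on withdrawal in sponge cells was 1689 and 3250, against 2087 and 1961 with quantile normalization and 2079 and 1956 with the deposited table. The cause was not tested. For Cdk6 without IL-7, the sponge effect was called at 0.58 with quantile normalization and the deposited table (0.58) and at 0.35 with normexp. For Cdk4 the difference between withdrawal effects was called at 0.70 with normexp and 0.60 with the mean over probes. Without the filter, more genes were tested, and the withdrawal effect of Cdk6 in sponge cells (-0.67) and the sponge effect of Ccnd2 without IL-7 (-0.57) were not called. Ccnd1 had no value with the filter; without it, limma called Ccnd1 higher on withdrawal in sponge cells (1.93, adjusted p = 0.0241), from signals that were above background on both arrays in none of the groups.

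The genes called on withdrawal in sponge cells numbered 2644 without the filter. For the sponge effect with IL-7, 241 genes were called, 151 with the replicate block, 394 with normexp (160 higher and 234 lower, against 67 and 174), 82 without the filter and 4 with only the arrays compared. For the difference between withdrawal effects they numbered 1124, 1687 with quantile normalization, and 0 with the replicate block and without the filter, where 5105 and 4744 had an unadjusted p under 0.05. No call of a member changed with the replicate block.

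With each array left out, the genes called were 1738 to 5141 and 6770 to 10356 for withdrawal in sponge and scrambled cells, 38 to 1360 and 3416 to 7447 for the sponge effect with and without IL-7, and 0 to 1616 for the difference between withdrawal effects. The count with IL-7 was 1360 without scrambled replicate 2 with IL-7 and 38 without sponge replicate 1 with IL-7. Over these, the withdrawal effects in sponge cells were -0.57 to -0.48 for Cdk4 and -0.72 to -0.62 for Cdk6, the sponge effects without IL-7 were -0.65 to -0.48 for Ccnd2 and 0.27 to 0.74 for Cdk6, and the difference between withdrawal effects was -0.054 to 0.42 for Cdk6, negative without scrambled replicate 2 without IL-7. For the sponge effect with IL-7 they were -0.45 to -0.21 for Ccnd2 and 0.10 to 0.32 for Ccnd3, and with normexp that of Cdk4 was 0.13 and of Cdk6 0.19. A lone array was assumed to vary like the other groups.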
